A study of Capra hircus with 20 samples.

Results

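The orexin and melanin-concentrating hormone (MCH) systems were followed through 6 genes, of 21071 genes with values, in the hypothalamus of goats from birth to sexual maturity. The 6 genes were chosen by symbol and were matched to the goat annotation by their gene identifiers. They were HCRT, which encodes the precursor of the orexin peptides; PMCH, which encodes the precursor of MCH; LHX9, which encodes a LIM homeobox transcription factor used by orexin neurons; HCRTR1 and HCRTR2, which encode the orexin receptors; and MCHR1, which encodes the MCH receptor. The libraries came from 20 female Jining grey goats, untreated and kept under a shared management, with 5 goats each at 1 day of age (D1), 60 days (M2), 120 days (M4) and 180 days (M6). Each goat gave a strand-specific library of hypothalamic RNA depleted of ribosomal RNA, named here by its stage and replicate, so that M6-5 is the fifth goat at 180 days. Values are FPKM, the fragments of a gene scaled by the length of its exons and by the mapped fragments of the library. Each group is a dissected piece of whole hypothalamus, so fewer cells of a type and less RNA per cell cannot be told apart.

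Orexin and MCH neurons are separate populations of the lateral hypothalamus that lie among each other and send axons to most of the brain. Orexin neurons fire during waking and promote arousal, feeding and energy use, and loss of orexin signalling causes narcolepsy. MCH neurons are most active in sleep, and MCH promotes food intake and the storage of energy. Both populations reach neurons that govern reproduction, and both peptides act on receptors coupled to G proteins. HCRTR1 prefers orexin A, HCRTR2 binds both orexins, and MCHR1 sits largely on the primary cilium of neurons.

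The genes lie at 6 separate places of the ARS1.2 assembly. HCRT (gene 108638238) spans chr19:41941588-41942802, and PMCH (gene 102176304) spans chr5:64687977-64688897 within the limits of PARPBP, a DNA repair gene. PARPBP was between 0 and 1.56 FPKM in the 20 libraries, and the sources used here do not say whether fragments were assigned by strand. LHX9 (gene 102171729) spans chr16:75438611-75454027 and HCRTR1 (gene 102169345) spans chr2:13851449-13860951. HCRTR2 (gene 102183738) spans chr23:43404571-43541701 and MCHR1 (gene 102187201) spans chr5:110897516-110901126. HCRT and PMCH are short genes of 1215 and 921 bp from start to end, whereas HCRTR2 spans 137131 bp.

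The libraries differed in the levels of genes that mark other brain regions. The summed FPKM of a library ran from 260199 to 377479. How many fragments lie behind a value is unknown, and 8 of the 8058 genes whose median reached 5 FPKM had a library listed at 0, so a value of 0 is given only as listed. KLHDC1 held 23.9% of the summed FPKM of M2-3 and 9.83% of that of M6-3, and was the highest gene in both. NKX2-1, a transcription factor that specifies the ventral hypothalamus, reached 1 FPKM in 7 of 20 libraries and was listed at 0 in 4. The summed level of 4 striatum markers was 391.6 FPKM in D1-4, 167.5 in M6-2 and 114.5 in M2-4, against at most 18.9 in the other 17 libraries. The summed level of 6 thalamus markers was 433.6 FPKM in M4-2 and at most 115.2 elsewhere, and that of 5 cortex markers was 63.2 FPKM in M4-1 and at most 8.27 elsewhere. These values are set beside the results they move with.

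The peptide genes were very high in a few goats and near 0 in the rest. Over the 20 libraries the median was 0.802 FPKM for PMCH and 0.333 FPKM for HCRT, while the highest values were 374.7 and 182.8 FPKM, both in M6-5. In that library PMCH ranked 77 and HCRT 191 among all genes by FPKM.

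**Figure D1:**
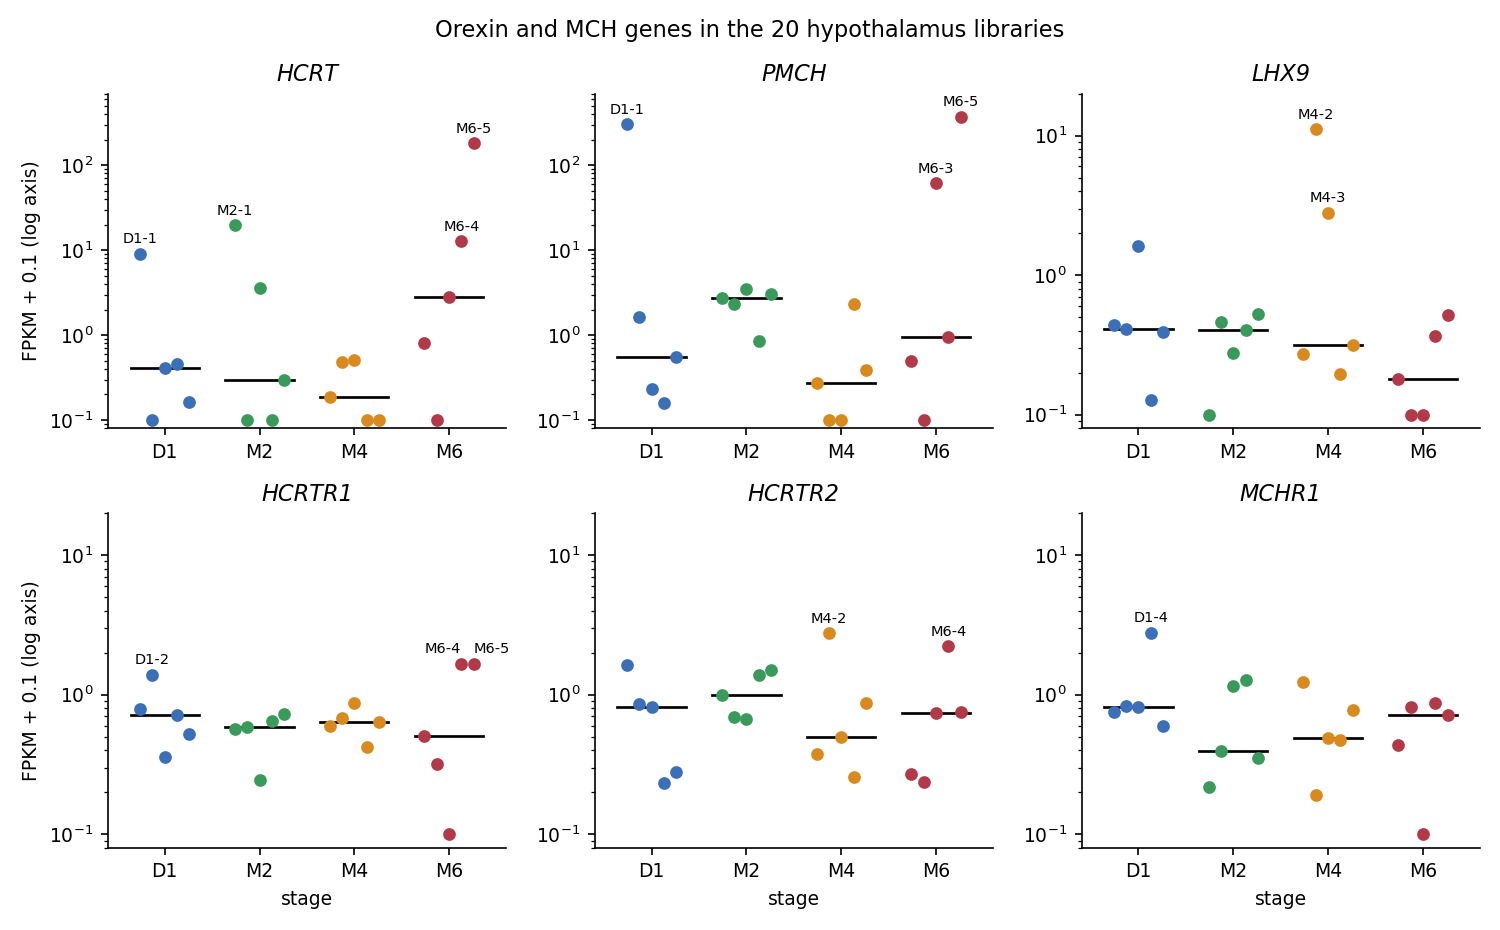
FPKM + 0.1 of the 6 genes (log axis) in each of the 5 goats of D1, M2, M4 and M6. Each point is a library and each black line is the stage median; points at 0.1 are listed at 0 FPKM. HCRT and PMCH exceed 100 FPKM in M6-5 (182.8 and 374.7 FPKM) and PMCH also in D1-1 (302.7 FPKM), LHX9 is highest in M4-2 (11.01 FPKM), and the 3 receptor genes stay under 3 FPKM.

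HCRT, the orexin precursor gene, was at 9.02, 0, 0.305, 0.362 and 0.063 FPKM in D1-1 to D1-5. It was at 19.5, 0, 3.52, 0 and 0.199 FPKM in M2-1 to M2-5. A single goat was high at each of these stages, and the next goat of the stage was lower by 24.9-fold at D1 and by 5.55-fold at M2. At M4, HCRT was at 0.089, 0.384, 0.411, 0 and 0 FPKM in M4-1 to M4-5, and no goat reached 1 FPKM. At M6 it was at 0.712, 0, 2.71, 12.7 and 182.8 FPKM in M6-1 to M6-5. M6-5 alone held 78.5% of all HCRT signal of the 20 libraries, and together with M2-1 and M6-4 it held 92.4%. HCRT reached 1 FPKM in 6 of 20 goats and was listed at 0 in 6 others, and every stage held a goat listed at 0.

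PMCH, the MCH precursor gene, was at 302.7, 1.52, 0.132, 0.058 and 0.445 FPKM in D1-1 to D1-5. D1-1 was 199.8-fold above the next goat of its stage. At M2, PMCH was at 2.67, 2.19, 3.37, 0.764 and 2.95 FPKM in M2-1 to M2-5, the only stage at which no goat was listed at 0 or over 4 FPKM. It was at 0.171, 0, 0, 2.20 and 0.291 FPKM in M4-1 to M4-5, and at 0.402, 0, 61.4, 0.841 and 374.7 FPKM in M6-1 to M6-5. M6-5, D1-1 and M6-3 together held 97.6% of all PMCH signal. The fourth highest library, M2-3 at 3.37 FPKM, was far below them.

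LHX9, the transcription factor gene, followed neither peptide. It was at 0.342, 0.310, 1.53, 0.028 and 0.291 FPKM in D1-1 to D1-5 and at 0, 0.364, 0.178, 0.303 and 0.428 FPKM in M2-1 to M2-5. It was at 0.173, 11.01, 2.70, 0.097 and 0.216 FPKM in M4-1 to M4-5 and at 0.079, 0, 0, 0.264 and 0.422 FPKM in M6-1 to M6-5. M4-2 held 58.8% of the LHX9 signal and M4-3 and D1-3 brought the share to 81.3%, while M6-5, the highest library for HCRT, had 0.422 FPKM. The 3 libraries highest in LHX9 were also the 3 highest in SLC17A6, the vesicular glutamate transporter of thalamic and hypothalamic neurons, at 231.4 FPKM in M4-2, 109.3 in D1-3 and 84.0 in M4-3. M4-2 was highest as well in the thalamus genes TCF7L2 (86.3 FPKM), GBX2 (18.2 FPKM), RORA (79.8 FPKM) and CALB2 (247.1 FPKM). CALB2 alone made 247.1 of the 433.6 FPKM summed over the thalamus markers in M4-2. Of the other thalamus markers, PRKCD was at 1.49 FPKM in M4-2, against a median of 2.26. SLC17A7 was at 0.602 FPKM there, against a median of 0.215 and a highest value of 68.0 in M4-1. The part of the thalamus markers in the LHX9 level was not tested.

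The receptor genes were low in every goat and varied far less than the peptide genes. HCRTR1 was at 0.687, 1.29, 0.255, 0.616 and 0.425 FPKM in D1-1 to D1-5 and at 0.468, 0.492, 0.147, 0.551 and 0.632 FPKM in M2-1 to M2-5. It was at 0.498, 0.580, 0.777, 0.319 and 0.534 FPKM in M4-1 to M4-5, the narrowest range of the 4 stages. At M6 it was at 0.410, 0.218, 0, 1.57 and 1.57 FPKM in M6-1 to M6-5. The 2 highest goats for HCRTR1, M6-5 and M6-4, were also 2 of the 3 highest for HCRT. M2-1, the second highest for HCRT, had HCRTR1 at 0.468 FPKM, under its median of 0.516 FPKM. Over the 20 libraries, log2(FPKM + 0.1) of HCRT and HCRTR1 had a Pearson r of 0.20 (permutation p = 0.393).

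HCRTR2, the only one of the 6 genes above 0 in all 20 libraries, averaged 0.665 ± 0.571 FPKM (SD, n = 5) at D1, from 1.54, 0.758, 0.713, 0.132 and 0.179 FPKM in D1-1 to D1-5. It averaged 0.948 ± 0.381 FPKM (SD, n = 5) at M2, from 0.899, 0.593, 0.571, 1.28 and 1.39 FPKM in M2-1 to M2-5. All 5 goats of M2 were thus within 0.571 and 1.39 FPKM, inside the range of D1. It averaged 0.851 ± 1.04 FPKM (SD, n = 5) at M4, from 0.277, 2.66, 0.395, 0.156 and 0.768 FPKM in M4-1 to M4-5. It averaged 0.742 ± 0.808 FPKM (SD, n = 5) at M6, from 0.170, 0.136, 0.637, 2.12 and 0.649 FPKM in M6-1 to M6-5. The highest value, in M4-2, came from the library that was also highest in LHX9 and in thalamus markers.

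MCHR1 was at 0.647, 0.734, 0.716, 2.68 and 0.500 FPKM in D1-1 to D1-5 and at 0.118, 0.296, 1.06, 1.18 and 0.254 FPKM in M2-1 to M2-5. It was at 1.14, 0.091, 0.392, 0.371 and 0.680 FPKM in M4-1 to M4-5 and at 0.337, 0.723, 0, 0.769 and 0.613 FPKM in M6-1 to M6-5. The 3 highest libraries were D1-4, M2-4 and M4-1, of which D1-4 and M2-4 were high in the striatum markers and M4-1 in the cortex markers. In M6-2, also high in striatum markers, MCHR1 was at 0.723 FPKM, the second highest of its stage. The striatum gene DRD1, the D1 dopamine receptor gene, was at 150.6 FPKM in D1-4, and the part of the striatum markers in the MCHR1 level was not tested. MCHR2, which encodes the other MCH receptor, was listed at 0 in 19 libraries and at 1.65 FPKM in M6-3.

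In order of their median level over the 20 libraries, the genes ran from PMCH at 0.802 FPKM through HCRTR2 at 0.643, MCHR1 at 0.630, HCRTR1 at 0.516 and HCRT at 0.333 to LHX9 at 0.277 FPKM. Neighbours in this order did not separate, since their ranges overlapped and the gene with the higher median was the higher in only 8 to 12 of the 20 libraries. PMCH exceeded HCRTR2 in 11 libraries, HCRTR2 exceeded MCHR1 in 12, MCHR1 exceeded HCRTR1 in 9, HCRTR1 exceeded HCRT in 12 and HCRT exceeded LHX9 in 8. Between the orexin receptors, HCRTR2 was higher than HCRTR1 in 11 libraries and lower in 9. PMCH was higher than the gene of its receptor MCHR1 in 11 libraries and lower in 9.

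The spread among goats of a stage set the peptide genes apart from most genes. Within stages, log2(FPKM + 0.1) had a standard deviation of 3.49 for PMCH and 3.00 for HCRT, against a median of 0.57 over the 16771 genes that had at least 0.1 FPKM in at least 5 libraries. PMCH stood at percentile 99.98 of these genes and HCRT at percentile 99.92. LHX9 followed at 1.60 (percentile 97.0), HCRTR2 at 1.14 (percentile 86.8), MCHR1 at 1.09 (percentile 84.7) and HCRTR1 at 1.00 (percentile 81.0). Stage accounted for 22.9% of the variance of HCRT, 22.7% of that of LHX9, 16.6% of that of PMCH, 14.8% of that of MCHR1, 8.14% of that of HCRTR2 and 2.90% of that of HCRTR1, and the median over all genes tested was 18.2%.

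**Figure D2:**
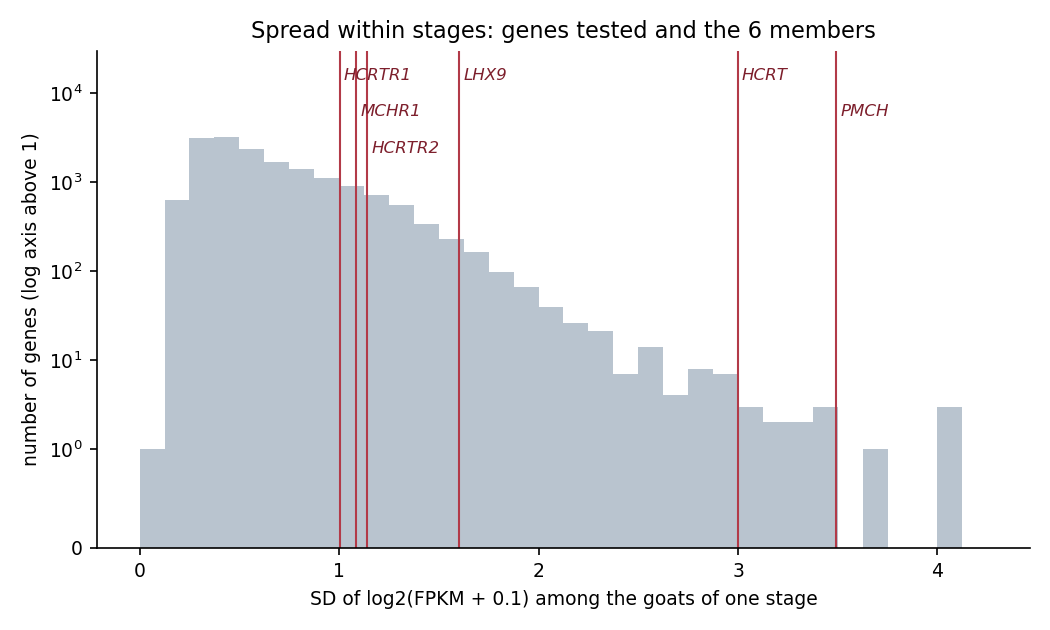
Number of genes (log axis above 1) by the standard deviation of log2(FPKM + 0.1) among goats of a stage, for the 16771 genes tested; red lines mark the 6 genes. HCRT (3.00) and PMCH (3.49) lie in the far right tail, and the receptor genes HCRTR1, MCHR1 and HCRTR2 lie between 1.00 and 1.14, above the median of 0.57.

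Whether the 6 genes differed between stages was tested with limma, which fitted log2(FPKM + 0.1) of all 20 libraries together, and p-values were adjusted over the 16771 genes by Benjamini-Hochberg within each comparison. A call needed an adjusted p under 0.05 and a log2 fold change of 1 or more in either direction. No member was called in M2 vs. D1, M4 vs. M2, M6 vs. M4 or M6 vs. M2, in each of which 0% of all genes tested were called. No member was called in M4 vs. D1, where 0.0537% of all genes were, in M6 vs. D1, where 0.00596% were, or in the mean of M2, M4 and M6 against D1 (later vs. D1), where 0.0596% were. The FPKM ranges of the stages overlapped in all 36 pairs of stages examined over the 6 genes. The share of such overlaps over all genes was not computed, so this count is not a trait particular to the 6 genes. Before adjustment, HCRT and LHX9, 2 of the 6 genes, had a p under 0.05 in M6 vs. M4, as did 6.87% of all genes. None of the 6 had one elsewhere, where the share of all genes was 15.6% (M2 vs. D1), 8.68% (M4 vs. M2), 8.71% (M4 vs. D1), 7.41% (M6 vs. D1), 6.14% (M6 vs. M2) and 11.7% (later vs. D1).

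The peptide genes had the widest intervals. On the log2 scale HCRT in M6 vs. M4 differed by 4.03 (SE 1.70, unadjusted p = 0.0279, adjusted p = 0.700 by limma), with a 95% confidence interval of 0.48 to 7.57. The direction was upheld in each fit with a library left out, and the log2 difference was 2.60 without M6-5. HCRT in M6 vs. D1 differed by 2.85 (SE 1.70, adjusted p = 0.734 by limma), and by 1.42 without M6-5. In M2 vs. D1 it differed by 0.59 (SE 1.70, adjusted p = 0.900 by limma), and by -0.60 without M2-1. PMCH in M6 vs. M4 differed by 3.75 (SE 1.97, adjusted p = 0.754 by limma), with a 95% confidence interval of -0.35 to 7.86. The value was 2.12 without M6-5 and 1.56 with library quality weights. PMCH in M4 vs. M2 differed by -2.91 (SE 1.97, adjusted p = 0.666) and in later vs. D1 by -0.17 (SE 1.61, adjusted p = 0.975), and the latter value was 1.72 without D1-1.

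LHX9 in M6 vs. M4 had a log2 difference of -2.12 (SE 0.94, unadjusted p = 0.0347, adjusted p = 0.700 by limma), with a 95% confidence interval of -4.07 to -0.17. Without M4-2, the library high in thalamus markers, the difference was -1.21. For LHX9 in M4 vs. D1 the log2 difference was 1.03 (SE 0.94, adjusted p = 0.817), and it was 0.12 without M4-2.

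Among the receptor genes, the largest log2 difference was that of MCHR1 in M6 vs. D1, at -1.05 (SE 0.66, adjusted p = 0.741 by limma), with a 95% confidence interval of -2.42 to 0.32, and it was -0.49 without M6-3. MCHR1 in later vs. D1 differed by -0.92 (SE 0.54, adjusted p = 0.511), and by -0.54 without D1-4, the library highest in striatum markers. HCRTR2 differed most in M2 vs. D1, by 0.74 (SE 0.68, adjusted p = 0.623 by limma, 95% confidence interval -0.68 to 2.16), and by 0.40 without D1-4. HCRTR1 differed most in M2 vs. D1 as well, by -0.38 (SE 0.61, adjusted p = 0.803 by limma, 95% confidence interval -1.66 to 0.90), and by -0.11 without M2-3. Each interval of a receptor gene between a pair of stages reached past a log2 difference of 1 in at least one direction, so a change of that size lies within what 5 goats a stage allow.

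**Figure D3:**
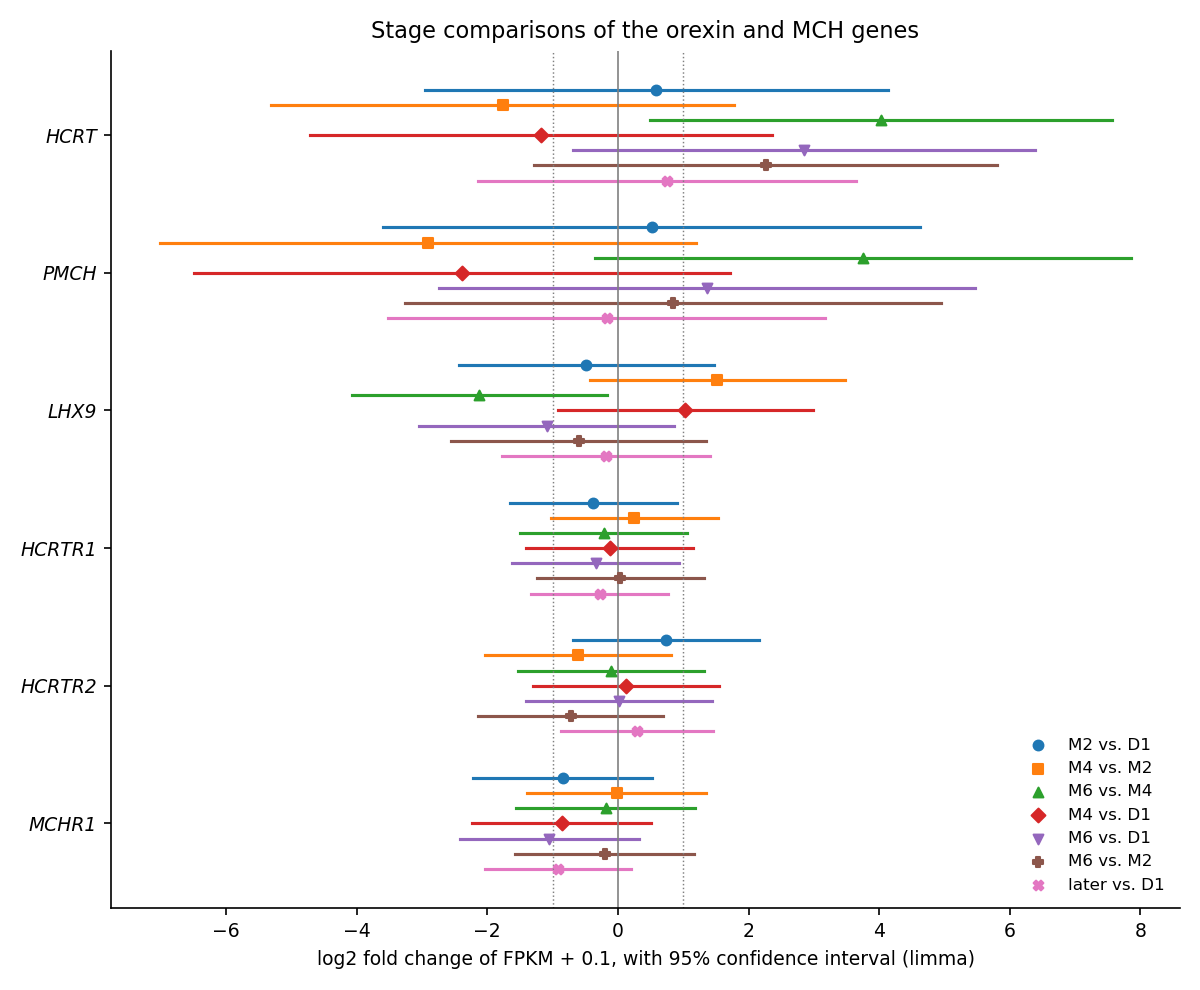
log2 fold change of FPKM + 0.1 with its 95% confidence interval (limma) for the 6 genes in the 6 pairwise stage comparisons and in later vs. D1, the mean of M2, M4 and M6 against D1; dotted lines mark a log2 fold change of 1 in either direction. Intervals exclude 0 only for HCRT in M6 vs. M4 (0.48 to 7.57) and LHX9 in M6 vs. M4 (-4.07 to -0.17), before adjustment over all genes.

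HCRT and PMCH were high in partly different goats. Both were high in M6-5, at 182.8 and 374.7 FPKM. D1-1 had PMCH at 302.7 and HCRT at 9.02 FPKM, and M6-3 had PMCH at 61.4 and HCRT at 2.71 FPKM. M2-1 and M6-4 were the reverse, with HCRT at 19.5 and 12.7 FPKM and PMCH at 2.67 and 0.841 FPKM. In the 12 libraries where both were above 0, the log2 ratio of HCRT to PMCH ran from -5.07 in D1-1 to 3.92 in M6-4, with a median of -0.44. HCRT was the higher in 8 libraries, PMCH in 11, and both were listed at 0 in M6-2.

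**Figure D4:**
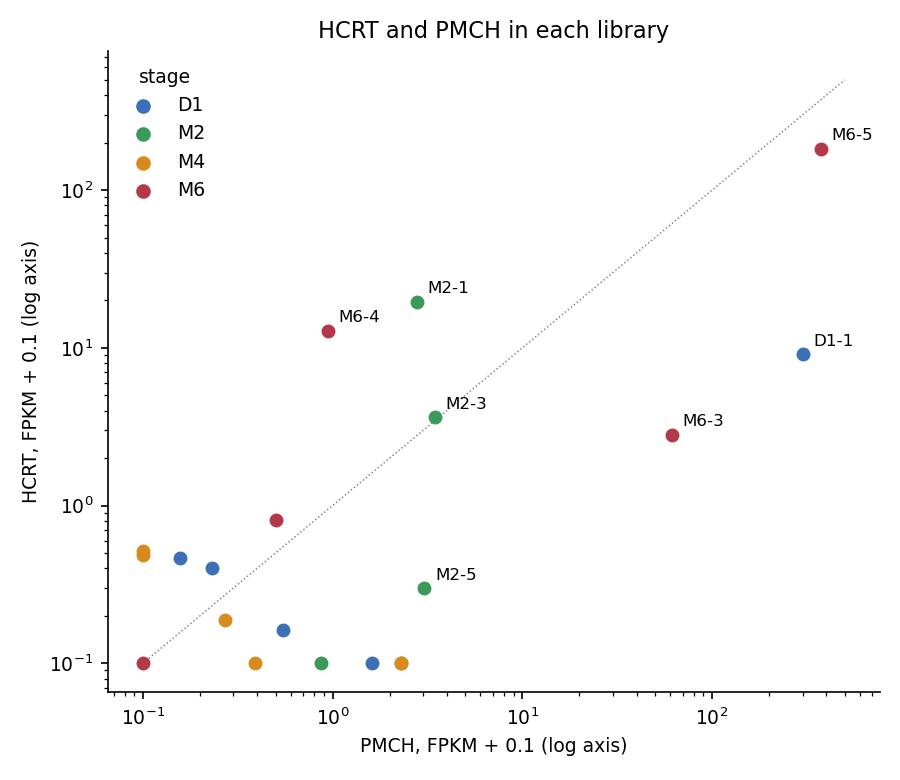
HCRT against PMCH in each library, both as FPKM + 0.1 on log axes and coloured by stage; the dotted line marks equal values. M6-5 is high in both (182.8 and 374.7 FPKM), D1-1 and M6-3 lie to the right with PMCH at 302.7 and 61.4 FPKM, and M2-1 and M6-4 lie above the line with HCRT at 19.5 and 12.7 FPKM.

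Correlations of log2(FPKM + 0.1) were calculated for the 15 pairs of the 6 genes. HCRT and PMCH had the largest Pearson r, 0.65 (n = 20, permutation p = 0.00270), and were the 1 pair to pass Benjamini-Hochberg adjustment over the 15 pairs (adjusted p = 0.0405, permutation test). Their Spearman rho was 0.39 (permutation p = 0.0876, adjusted p = 0.328) and did not pass. The r was 0.50 without the 2 libraries farthest from the median of HCRT and 0.60 after the stage means were subtracted. The 3 libraries highest in PMCH stood apart from the other 17, and over those 17, a choice made once the values were known, r was 0.23 (permutation p = 0.375, adjusted p = 0.614) and rho was 0.06 (permutation p = 0.823). That cut was made on PMCH itself and narrows its range, so the lower r does not show that the relation rested on those 3 libraries. With only D1-1 left out r was 0.62, and with only M6-3 left out it was 0.65. With 1 library left out in turn, r ran from 0.49 without M6-5 to 0.70 without M6-4. The pair no longer passed without any 1 of D1-1, D1-5, M2-3, M4-1, M4-5, M6-1, M6-2, M6-3 and M6-5, with adjusted p from 0.0513 to 0.233. 

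No other pair passed over the 20 libraries. LHX9 and HCRTR2 had an r of 0.49 (n = 20, permutation p = 0.0256, adjusted p = 0.192) and a rho of 0.50 (permutation p = 0.0273, adjusted p = 0.205). That r was 0.44 without the 2 libraries farthest from the median of LHX9, 0.30 without M4-2, and 0.60 after the stage means were subtracted. It was 0.58 without M4-3, and the pair then passed (adjusted p = 0.0355, permutation test). LHX9 and HCRTR1 had the largest rho, 0.53 (permutation p = 0.0171, adjusted p = 0.205), with an r of 0.32 (n = 20, permutation p = 0.159, adjusted p = 0.458). HCRTR1 and HCRTR2 had an r of 0.31 (n = 20, permutation p = 0.184, adjusted p = 0.458) and a rho of 0.46 (permutation p = 0.0422, adjusted p = 0.211). HCRT and the gene of its receptor HCRTR2 had an r of 0.33 (n = 20, permutation p = 0.152, adjusted p = 0.458) and a rho of 0.27 (permutation p = 0.239).

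HCRT and PMCH were the members with a mean of at least 1 FPKM, and for each the 5 genes with the most similar pattern were taken from 12363 genes by Pearson r over the 20 libraries, given here as a description. For HCRT they were IER5 at r = 0.80, SAMD4B at 0.75, SNRNP48 at 0.75, REPIN1 at 0.75 and ZBTB40 at 0.74. For PMCH they were GNAI2, an inhibitory G protein subunit, at r = 0.74, THRA, a thyroid hormone receptor, at 0.72, PPP1R10 at 0.71, ZSCAN2 at 0.71 and PTPRF at 0.70. Neither peptide gene was among the 5 of the other. The likest genes had narrow ranges, such as 1.27 to 3.67 FPKM for IER5 and 14.7 to 33.0 FPKM for GNAI2. Without the 3 libraries highest in HCRT, r was 0.63 for IER5 and 0.35 for ZBTB40, and without the 3 highest in PMCH it was 0.61 for GNAI2 and 0.44 for PPP1R10.

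Other genes of these neurons had their highest values mostly in other goats. Of the orexin neuron genes, PDYN, which encodes the dynorphin precursor released with orexin and also made by striatal neurons, was highest in D1-4 at 128.0 FPKM and in M2-4 at 100.4 FPKM, both high in striatum markers, and was at 15.04 FPKM in M6-5. NPTX2, a secreted synapse protein gene, was highest in M4-2 at 9.03 FPKM and was at 1.63 FPKM in M6-5. QRFP, a peptide gene of lateral hypothalamic neurons, reached 1.69 FPKM in M2-1, the library second highest in HCRT, and was at most 0.128 FPKM elsewhere. Of the MCH neuron genes, CARTPT, a peptide gene shared with many neurons, was highest in M6-4 at 108.4 FPKM, where PMCH was at 0.841 FPKM, and was at 8.91 FPKM in D1-1, 8.78 in M6-5 and 0.303 in M6-3. TACR3, the neurokinin B receptor gene, was highest in D1-1 at 5.08 FPKM and was at 2.45 FPKM in M6-5 and 0.287 in M6-3.

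The libraries with high peptide values also differed from each other in their other markers. D1-1 was the highest library in NKX2-1, at 3.17 FPKM. M6-4, high in HCRT but not in PMCH, was highest in the transcription factor genes SIM1 and OTP, which specify neuroendocrine neurons, at 13.6 and 11.1 FPKM, and in TRH, the thyrotropin-releasing hormone gene, at 55.0 FPKM. M6-3, which followed M6-5 and D1-1 in PMCH, had the lowest summed level of 5 pan-neuronal markers, 67.1 FPKM against a median of 650.4, and the highest summed level of 6 oligodendrocyte and myelin markers, 14277 FPKM against a median of 6401. M6-5 was highest in HDC, the histidine decarboxylase of histamine neurons, at 3.54 FPKM. HDC was second highest in D1-1, at 2.77 FPKM, so the 2 libraries highest in PMCH were also the 2 highest in HDC. In M6-3, next in PMCH, HDC was at 0.060 FPKM. HDC was at 1.57 FPKM in M4-5 and 1.41 in M2-2, where PMCH was at 0.291 and 2.19 FPKM. The other cell type lists gave summed levels of 1038 to 3986 FPKM for astrocyte, 33.2 to 167.4 for microglia, 27.7 to 120.7 for endothelial, 3.72 to 35.6 for ependymal, 1.11 to 10.1 for choroid plexus and 0.191 to 7.28 for pituitary markers. The genes named here were picked out of the marker lists after their values were seen, and their part in the levels of HCRT and PMCH was not tested.

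**Figure D5:**
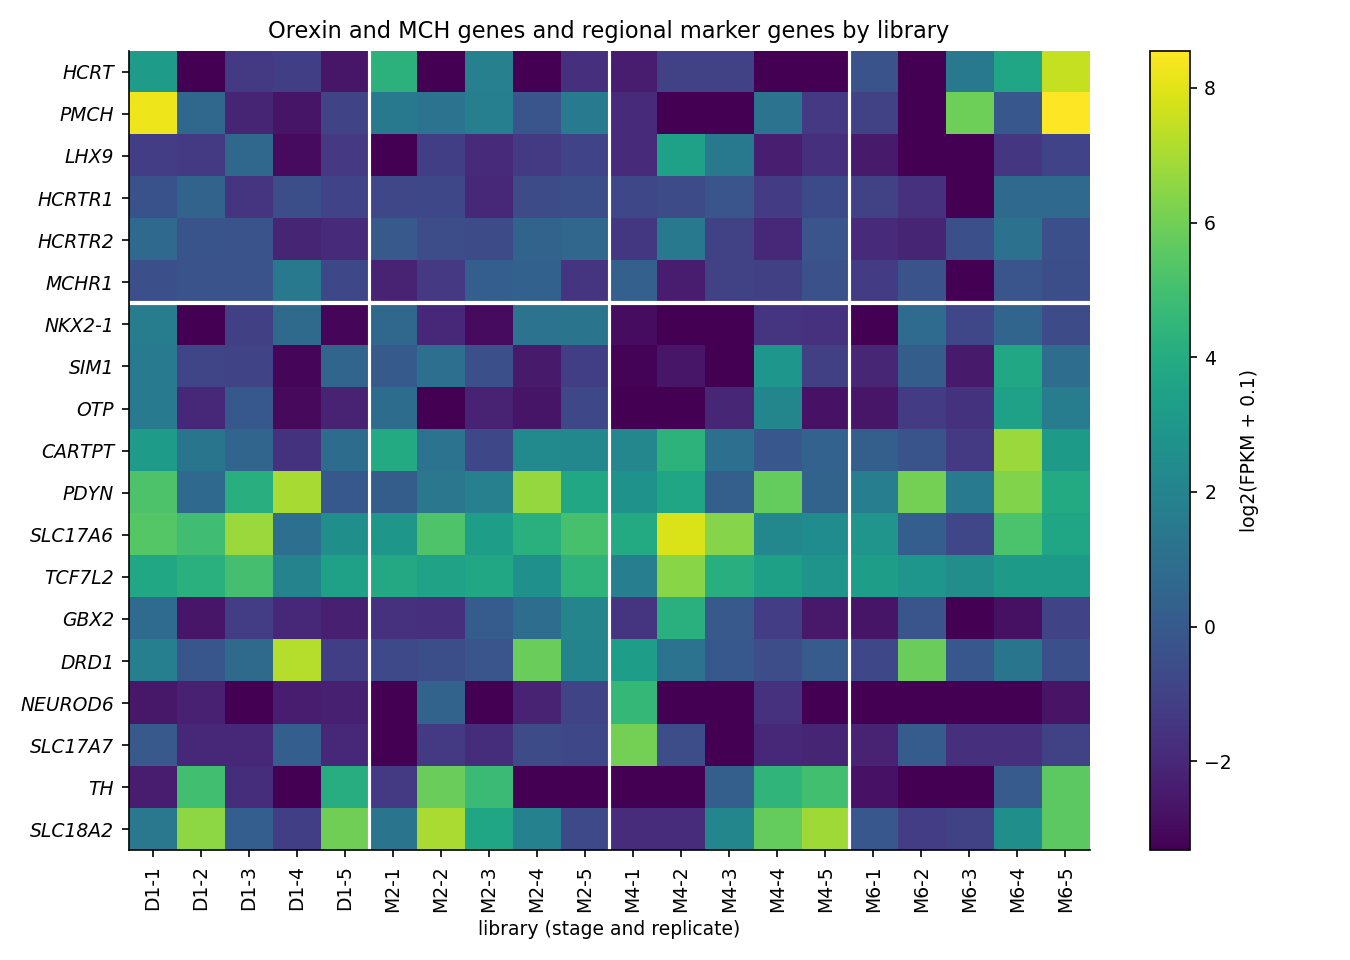
log2(FPKM + 0.1) of the 6 genes (top) and of 13 regional and cell type genes (bottom) in the 20 libraries, ordered by stage and replicate. PMCH is brightest in M6-5, D1-1 and M6-3 and HCRT in M6-5, M2-1 and M6-4, and the bright cells of LHX9, SLC17A6, TCF7L2 and GBX2 fall in M4-2, of DRD1 in D1-4, M2-4 and M6-2, and of NEUROD6 and SLC17A7 in M4-1.

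The wider pathway and the cell types of the tissue were described with 20 gene lists, of which 157 different genes passed the filter. None of the 157 was called in any of the 7 comparisons by limma. In M2 vs. D1, 4 of them had an unadjusted p under 0.05, which is 2.55% of the list genes against 15.6% of all genes. The number was 13 for M4 vs. M2 (8.28% against 8.68% of all genes), 11 for M6 vs. M4 (7.01% against 6.87%) and 9 for M4 vs. D1 (5.73% against 8.71%). It was 3 for M6 vs. D1 (1.91% against 7.41%), 5 for M6 vs. M2 (3.18% against 6.14%) and 5 for later vs. D1 (3.18% against 11.7%). The orexin neuron genes had a median log2 difference of 0.03 in M2 vs. D1, where that of all genes was -0.07, and the 7 MCH neuron genes one of -0.62, with 3 of 7 above 0 and none at an unadjusted p under 0.05. For 7 genes of other lateral hypothalamic neurons it was -0.34, and those with the smallest p were the peptide genes TAC1, at -1.33 (SE 0.97, adjusted p = 0.521 by limma), and GAL, at 1.46 (SE 1.26, adjusted p = 0.597). TAC1 was at 460.9 FPKM in D1-4, 281.1 in M6-2 and 118.0 in M2-4, all high in striatum markers, and at most 24.7 FPKM elsewhere. The part of the striatum markers in the TAC1 difference was not tested. Of the orexin neuron genes, RFX4 and PCSK1 had the smallest p, at 0.30 (SE 0.26, adjusted p = 0.606 by limma) and 0.64 (SE 0.80, adjusted p = 0.729). Of the MCH neuron genes, these were NUCB2, at -0.76 (SE 0.38, adjusted p = 0.336 by limma), and GAD1, at -0.71 (SE 0.70, adjusted p = 0.654).

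Peptide processing and release genes, which cut, amidate and package precursors such as those of orexin and MCH, had a median log2 difference of -0.37 in M2 vs. D1, with 4 of 16 above 0. CPE, the carboxypeptidase that trims peptide precursors, had the smallest p of the list, at a log2 difference of -0.55 (SE 0.24, unadjusted p = 0.0350, adjusted p = 0.281 by limma). It was the highest gene of the list, at 179.5 to 517.5 FPKM, and its lowest library was M6-3. SCG3, a granin of secretory granules, differed by -0.54 (SE 0.26, adjusted p = 0.324). The lowest gene of the list was QPCTL, a glutaminyl cyclase gene, at a median of 2.36 FPKM.

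Genes of receptor signalling had a median log2 difference of -0.03 in M2 vs. D1, with 10 of 22 above 0. ARRB1, a beta-arrestin that ends receptor signalling, differed by 0.36 (SE 0.22, adjusted p = 0.439 by limma) and RGS4, a regulator of G protein signalling, by -1.22 (SE 0.89, adjusted p = 0.518). RGS4 was at 235.0 FPKM in D1-4, the library highest in striatum markers, and at 39.3 to 91.6 FPKM in the other goats of D1. The part of the striatum markers in the RGS4 difference was not tested. GNAI1, an inhibitory G protein subunit, was the highest at a median of 123.5 FPKM, and TRPC6, a cation channel gene, the lowest at 1.43 FPKM. In M6 vs. M4, where 6.87% of all genes had an unadjusted p under 0.05, 3 of 22 had one, all with a negative difference, namely PLCB1 and PLCB4, phospholipases that act behind the orexin receptors, and RGS8, with log2 differences of -0.84, -1.05 and -1.67 (adjusted p = 0.700, 0.700 and 0.712 by limma). The pan-neuronal markers SNAP25 and SYT1 differed in the same comparison by -1.34 and -1.52 (adjusted p = 0.723 and 0.700), and their part in these values was not tested.

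Genes of the neuronal primary cilium, where MCHR1 resides, had a median log2 difference of 0.17 in M2 vs. D1, with 9 of 13 above 0. BBS5 and BBS4, subunits of the complex that carries receptors into and out of the cilium, differed by -0.80 (SE 0.32, unadjusted p = 0.0206, adjusted p = 0.246 by limma) and -0.38 (SE 0.22, adjusted p = 0.405). The related peptide receptor QRFPR, which binds the product of QRFP, differed by 0.45 (SE 0.77, adjusted p = 0.813) and was highest in M4-2, at 2.52 FPKM. ADCY3, the adenylyl cyclase of neuronal cilia, was highest in D1-4 at 14.8 FPKM, the library highest in MCHR1 and in the striatum markers.

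Of 13 genes of other arousal systems, which orexin neurons excite, HRH2, the histamine H2 receptor gene, had the smallest p of all lists. It was at 1.40, 1.57, 0.494, 2.55 and 1.01 FPKM in D1-1 to D1-5 and at 8.57, 3.93, 4.29, 9.83 and 3.52 FPKM in M2-1 to M2-5, so every goat of M2 was above every goat of D1. HRH2 was named for its p, and the share of all genes that separate in this way was not computed. The separation therefore does not set HRH2 apart. The log2 difference in M2 vs. D1 was 2.06 (SE 0.46, unadjusted p = 0.000211, adjusted p = 0.104 by limma), short of the threshold. In M4 vs. D1 it was 1.54 (SE 0.46, adjusted p = 0.296), and in M6 vs. M2 it was -1.58 (SE 0.46, adjusted p = 0.746). ADORA1, the adenosine A1 receptor gene, differed in M2 vs. D1 by 0.70 (SE 0.37, adjusted p = 0.363).

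Of 23 regional transcription factors tested, FOXB1, which marks the mammillary region, differed in M2 vs. D1 by 2.18 (SE 0.70, unadjusted p = 0.00513, adjusted p = 0.179 by limma), from at most 0.566 FPKM at D1 to 0.599 to 5.88 FPKM at M2. FOXB1 too was named for its p, and the share of all genes whose ranges separate was not computed. The median log2 difference of this list was -0.87 in M4 vs. M2, with 1 of 23 above 0 and 6 at an unadjusted p under 0.05, all with a negative difference, and 1.05 in M6 vs. M4, with 17 of 23 above 0 and 2 at an unadjusted p under 0.05. The share of all genes at such a p was 8.68% and 6.87%. No gene of the list was called in either comparison. Both comparisons contain M4, with opposite sign. A gene whose M4 level lies above or below that of both M2 and M6 takes opposite signs in them, so the signs are not independent. HCRT and PMCH had the same signs in these comparisons, at -1.77 and -2.91 in M4 vs. M2 and 4.03 and 3.75 in M6 vs. M4, and the part of the regional genes in those values was not tested. LHX9, itself a transcription factor gene, had the opposite signs, at 1.52 and then -2.12, as did HCRTR1, at 0.25 and then -0.21. HCRTR2 (-0.61 and -0.11) and MCHR1 (-0.02 and -0.19) were negative in both comparisons. HCRT in M4 vs. M2 was -0.58 without M2-1. The median of the MCH neuron genes was -0.21 and then 0.16, and that of the other lateral hypothalamic neuron genes -0.72 and then 0.80. Other lists had the opposite signs, with medians of 0.31 and then -0.75 for the orexin neuron genes and 0.75 and then -0.94 for the pan-neuronal markers. Of the peptide processing and release genes, 14 of 16 were above 0 in M4 vs. M2 and 2 of 16 in M6 vs. M4. PCSK1, SCG2 and VGF are in both this list and the orexin neuron list. M4, the stage with the lowest HCRT and PMCH maxima, was also the stage where NKX2-1 reached 1 FPKM in no goat. It was at 0.030, 0, 0, 0.243 and 0.222 FPKM in M4-1 to M4-5. NKX2-1 did not follow the peptide genes in every library. It was at 1.63, 2.23 and 1.69 FPKM in D1-4, M2-4 and M6-2, all high in striatum markers. HCRT was at most 0.362 FPKM and PMCH at most 0.764 FPKM in those libraries. Of the libraries high in a peptide gene, NKX2-1 was at 0.581 FPKM in M6-5 and 0.480 in M6-3. It was at 3.17 FPKM in D1-1, 1.53 in M2-1 and 1.38 in M6-4. Other hypothalamic genes were not low in every goat of M4. M4-4 was the second highest library in SIM1 and OTP, at 7.39 and 4.21 FPKM, and the highest in the vasopressin gene AVP, at 392.1 FPKM. In the remaining goats of M4 these genes were at most 0.380, 0.140 and 1.24 FPKM. SIX3 was at 3.99 FPKM in M4-3 and LHX5 at 2.83 FPKM in M4-5, against medians of 2.33 and 1.79 FPKM.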

How the data were processed

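RNA-seq of 20 hypothalami was analysed, with 5 goats a stage. The authors trimmed reads with fastp, aligned them to the goat genome with HISAT2 2.0.5 and assembled transcripts with StringTie 1.3.3b, and the values they deposited are FPKM per gene. Whether strand was used in the assignment is not given in the sources used here. The fragments behind each value were not recovered, so depth is unknown and precision rests on the spread between goats. The 6 genes, proposed by symbol, the 20 gene lists and the tests were chosen with earlier results of these data known. Symbols and positions came from RefSeq for ARS1.2, which matched 20610 of 21071 genes by identifier, and 461 loci named only by the assembly had no match. Of the list genes, GNAQ, TUBB3 and PRL were not matched by symbol. A further gene, taken out of the striatum list and its sums after the data were seen, is not reported here.

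The test kept the 16771 genes, all 6 members included, that reached 0.1 FPKM in 5 or more libraries. log2(FPKM + 0.1) was fitted with limma 3.58.1 (R 4.3.3), stage as the only term and a variance trend, after the script was tested on simulated data. Fold changes on this scale understate those of low genes. Correlations used 100000 permutations, two-sided (numpy 2.4.6). The rule for naming list genes was every called gene, otherwise the 2 with the smallest p in M2 vs. D1 and the highest and lowest by level. It was not carried through for every list, and other genes were picked after their values were seen. Alternatives covered the pseudocount, filter, scaling, variance model, weights, replicate block, libraries in the fit and leaving out each library. Leaving out the 5 libraries highest in striatum, cortex or thalamus markers, or the 2 in which KLHDC1 was highest, was added after the data were seen, as were correlations with PMCH without its 3 highest libraries.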

Additional observations from a re-analysis of the deposited data

Results flagged for a closer look

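Within each stage, the highest or lowest of the 5 goats was compared with the others for each of the 6 genes. In 11 of 24 groups a goat lay farther from its nearest neighbour than 0.71 of the whole range of its stage, Dixon's 95% critical value. Chance alone marks about 1 in 20 such groups when values follow a normal distribution, and FPKM values of these genes were skewed. The share of groups that the same rule marks over all genes was not computed, so the count does not set the 6 genes apart. In each of the 11 groups the goat was the highest of its stage.

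For HCRT these goats were D1-1 at 9.02 FPKM, M2-1 at 19.5 FPKM and M6-5 at 182.8 FPKM. For PMCH they were D1-1 at 302.7 FPKM, M4-4 at 2.20 FPKM and M6-5 at 374.7 FPKM. LHX9 stood apart in D1-3 at 1.53 FPKM and in M4-2 at 11.01 FPKM, and HCRTR2 in M4-2 at 2.66 FPKM and in M6-4 at 2.12 FPKM. MCHR1 stood apart in D1-4 at 2.68 FPKM. D1-1 and M6-5 were the goats apart for both peptide genes, M4-2 was apart for LHX9 and HCRTR2 and was highest in thalamus markers, and D1-4 was highest in striatum markers. No goat stood apart for HCRTR1 at any stage.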

How the results depend on the processing

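No member was called in any comparison under any alternative or with any library left out. HCRT and PMCH, with an r of 0.65, passed the threshold for correlation and also did so with a pseudocount of 1 (0.72) and median-ratio scaling (0.65), but not without the 3 libraries highest in PMCH, where r was 0.23 and 0 of the 15 pairs passed. With each library left out in turn, 0 to 2 of the 15 pairs passed, and r ranged from 0.49 to 0.70 for HCRT and PMCH and from 0.30 to 0.58 for LHX9 and HCRTR2. The direction of member log2 differences, none of which was called, changed as follows, and the cause was not tested. With library quality weights, HCRT was -0.88 (M2 vs. D1) and -0.31 (later vs. D1); PMCH was -0.14 (M2 vs. D1), -0.85 (M6 vs. D1) and -0.71 (M6 vs. M2); HCRTR1 was -0.15 (M4 vs. M2) and -0.19 (M6 vs. M2). With the same weights, HCRTR2 was -0.39 (M4 vs. D1), -0.76 (M6 vs. D1) and -0.16 (later vs. D1), and MCHR1 was 0.16 (M4 vs. M2), 0.00567 (M6 vs. M4) and 0.17 (M6 vs. M2). With a pseudocount of 1, PMCH was -0.38 (M2 vs. D1), LHX9 0.065 (later vs. D1), and HCRTR1 0.082 (M6 vs. M4) and 0.00359 (M6 vs. D1). With the 5 libraries highest in striatum, cortex or thalamus markers left out, LHX9 was -0.060 (M4 vs. D1), HCRTR2 0.66 (M6 vs. M4), -0.65 (M4 vs. D1) and -0.12 (later vs. D1), and MCHR1 0.38 (M4 vs. M2). With the 2 KLHDC1-rich libraries left out, HCRTR1 was -0.020 (M4 vs. M2), 0.39 (M6 vs. M4), 0.27 (M6 vs. D1) and 0.012 (later vs. D1), HCRTR2 was -0.060 (M6 vs. D1), and MCHR1 was 0.26 (M4 vs. M2), 0.37 (M6 vs. M4) and 0.63 (M6 vs. M2). With median-ratio scaling HCRTR1 was -0.0090 (M6 vs. M2), and with quantile normalization HCRTR2 was -0.0040 (M6 vs. D1) and MCHR1 0.27 (M4 vs. M2).

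With each library left out in turn, differences that changed sign ranged from -0.60 to 1.64 for HCRT in M2 vs. D1, and for PMCH from -0.32 to 2.41 (M2 vs. D1), -0.27 to 3.26 (M6 vs. D1), -0.79 to 2.18 (M6 vs. M2) and -1.004 to 1.72 (later vs. D1). LHX9 ranged from -0.62 to 0.30 (later vs. D1). HCRTR1 ranged from -0.020 to 0.40 (M4 vs. M2), -0.62 to 0.39 (M6 vs. M4), -0.36 to 0.13 (M4 vs. D1), -0.75 to 0.27 (M6 vs. D1) and -0.37 to 0.65 (M6 vs. M2). HCRTR2 ranged from -0.58 to 0.41 (M6 vs. M4), -0.40 to 0.49 (M4 vs. D1), -0.46 to 0.38 (M6 vs. D1) and -0.047 to 0.66 (later vs. D1), and MCHR1 from -0.34 to 0.35 (M4 vs. M2), -0.56 to 0.37 (M6 vs. M4) and -0.53 to 0.35 (M6 vs. M2).

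Counts over all genes moved most with library quality weights, to 148 (M2 vs. D1), 65 (M4 vs. D1), 95 (M6 vs. D1) and 223 (later vs. D1), from 0, 9, 1 and 10. Without D1-4, the library highest in striatum markers, they were 10, 33, 20 and 34. The replicate number as a block changed no member's call and left HCRT in M6 vs. M4 at 4.03; same-numbered libraries had a median correlation of -0.01 over 30 pairs, 7 of them over 0.1, so the numbers were not taken as pairs, and 7 genes were called in M4 vs. D1. A mean of at least 1 FPKM kept only HCRT and PMCH, and a fit of only the stages compared gave no value for later vs. D1. The unknown depth and the goats that hold most of a gene's signal limit every value given.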
